A study of Mus musculus with 8 samples.

Results

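The cytosolic ribosomal protein genes encode the proteins of the large and small subunits of the ribosome that translates nuclear transcripts. A gene was taken as a member when a probe carried exactly 1 symbol of the form Rpl or Rps with a number, or Rplp0, Rplp1, Rplp2 or Rpsa; S6 kinase genes and pseudogene symbols were left out. This found 60 genes, 40 of the large and 20 of the small subunit, among 13840 genes with a probe of 1 symbol. They were carried by 70 probes, and each gene was read from its brightest probe by mean log2 intensity over the 8 arrays. Of the symbols of protein-coding genes in RefSeq's mouse table, 84 have this form, so the members are not the whole family.

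Each of the 8 arrays held RNA pooled from 6 males, and every combination of hypothalamus or liver, strain and diet had a single pool. One strain was C57BL/6J (B6 below). The other was B6.CAST-17 (congenic below), which is homozygous for a segment of chromosome 17 from the CAST donor on the background of the first. Mice of the chow groups were fed chow. Those of the other 4 groups had 24 h of free choice between a diet of 78% carbohydrate and one of 78% fat, each with 22% protein (2-choice below). The study's design text states that intake was first tested for 10 days in 20 to 25 mice per strain, that the most divergent mice went back to chow for 6 weeks before the day of choice, and that this day ended 4 h ahead of lights out. It does not say separately how the chow mice were chosen or when they were sampled. No age was given.

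Ribosomal proteins are needed in near-equal amounts, and their transcripts are among the most abundant of most cells. Their messengers open with a run of pyrimidines, the 5' TOP element, through which growth and nutrient signals acting on the mTOR kinase set how much of them is translated. In the liver, ribosome content follows feeding and dietary protein. Probe intensity reads transcript levels, not translation or ribosome number.

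Levels below are log2 intensity after quantile normalization over the 4 arrays of a tissue, and differences are on the same log2 scale. The authors had brought the arrays of both strains in each tissue and diet to 1 distribution: their sorted intensities agreed within 0.243%. The distributions differed between those sets, with a median intensity of 560 on both hypothalamus chow arrays, 1338 on both hypothalamus 2-choice arrays, 700 on the liver chow arrays and 702 on the liver 2-choice arrays. A strain comparison thus stays within 1 scaling set, whereas diet, or tissue, and scaling set cannot be told apart. Markers followed the tissue labels, with a summed hepatocyte marker level of 22.69 to 23.35 in liver and 11.81 to 13.42 in hypothalamus, and a summed neuron marker level of 13.56 to 14.28 in liver and 18.60 to 19.03 in hypothalamus.

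The strain labels of the hypothalamus chow pair were at odds with the other pairs. Of 433 chromosome 17 probes tested, 20 were at least 1.5-fold apart in the same direction in the other 3 strain pairs, and 16 of these 20 ran the opposite way in the hypothalamus chow pair. The same count was 8 of 16 for the hypothalamus 2-choice pair, 0 of 5 for the liver chow pair and 3 of 6 for the liver 2-choice pair. The free-text description of the array labelled congenic in that pair also names C57BL/6J, and free-text fields of the liver arrays name hypothalamus or, for chow, the 2-choice diet. Groups were taken from the titles and stay as labelled. Counts and fits of strain that rest on the hypothalamus chow pair are also given without it, or with its 2 arrays exchanged; the exchange was added after seeing the data and assigns no array to a strain.

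Nearly all members were bright. Their median level was 17.13 in hypothalamus and 17.55 in liver, against 9.61 and 9.33 over all probes, and 54 of the 60 lay at or above 14 in both tissues. Of the 60, 59 passed the filter on dim probes in hypothalamus (a mean level of at least 9.26), 58 passed in liver (at least 9.04), and 58 passed in both. Rpsa, the small-subunit protein also known as a laminin receptor, passed in neither tissue: it read 9.91 and 8.83 in the B6 and congenic hypothalamus on chow, 8.58 and 8.24 on 2-choice, and 8.07, 7.77, 7.86 and 7.93 in the liver arrays in the same order. Its probe was dim on every liver array, so no difference is given for it. Rpl37, a small zinc-binding protein of the large subunit, passed in hypothalamus only, at 9.18, 10.84, 9.41 and 9.72. Rpl3l, the Rpl3 paralog of striated muscle, was the dimmest of the members tested in both tissues, at 9.32 to 10.93 in hypothalamus and 9.48 to 10.38 in liver. Probes for transcripts this abundant, with many processed pseudogenes, may read more than 1 locus; probe sequences were not used here, and cross-reaction was not tested.

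Promoter sequence was available from RefSeq's mouse table (GRCm38.p6) for 50 of the 60 members, with 61 annotated starts. The windows of 9 members that the results below turn on are shown because the pyrimidine run that defines the family's translational control lies at the transcript start. Each holds 40 bases before the annotated start and 20 from it on, 5' to 3' on the gene's strand. Capitals mark a stretch of at least 5 C or T, counted from the C nearest to the annotated start from which such a stretch begins, and within 10 bases of the start. C or T may also stand directly before that C, in lower case. Rpl9 and Rplp0 hold none by this rule. Rpl10a and Rps27l each have 2 annotated starts, and the one nearer to RefSeq's gene start is shown. Their other starts hold no such stretch. The Rps27l start shown lies 1462 bases from that gene start.

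Rpl14: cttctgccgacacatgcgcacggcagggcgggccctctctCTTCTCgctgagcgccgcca
Rpl10a: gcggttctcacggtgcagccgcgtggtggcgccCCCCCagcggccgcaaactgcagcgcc
Rpl9: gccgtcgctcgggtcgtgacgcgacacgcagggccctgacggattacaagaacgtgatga
Rps26: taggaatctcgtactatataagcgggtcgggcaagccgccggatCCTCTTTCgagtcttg
Rps6: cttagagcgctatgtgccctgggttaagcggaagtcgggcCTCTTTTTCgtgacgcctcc
Rpl12: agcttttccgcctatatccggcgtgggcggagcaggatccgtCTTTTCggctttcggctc
Rplp0: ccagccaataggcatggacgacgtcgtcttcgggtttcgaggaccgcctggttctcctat
Rps27: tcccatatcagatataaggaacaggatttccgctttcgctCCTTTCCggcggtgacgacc
Rps27l: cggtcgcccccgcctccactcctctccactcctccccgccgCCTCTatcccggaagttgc

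The windows lie at chr9:120571477-120571536 on the plus strand for Rpl14, chr17:28328431-28328490 (plus) for Rpl10a, chr5:65391412-65391471 (minus) for Rpl9 and chr10:128626487-128626546 (minus) for Rps26. Those of Rps6 and Rpl12 lie at chr4:86857348-86857407 (minus) and chr2:32961672-32961731 (plus), that of Rplp0 at chr5:115559427-115559486 (plus), and those of Rps27 and its paralog Rps27l at chr3:90213629-90213688 (minus) and chr9:66946046-66946105 (plus). In Rps6, Rpl14 and Rps27 the marked stretch begins at the annotated start itself and is 9, 6 and 7 bases long. The whole unbroken run of C and T that holds it begins before the start and is 10 bases long in Rps6, 14 in Rpl14 and 9 in Rps27, and in Rpl10a, where all of it lies before the start, 7.

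A stretch of this kind stood at 34 of the 61 starts (55.7%), in 32 of the 50 members, against 30.7% of all 32851 promoters of the table. A C at the annotated start itself was found at 31.1% of the members' starts and 16.3% of all. On either strand of the whole window of 250 bases before and 50 after the start, CCGGAAG, which is the core of an Ets family site, was present in 37.7% of the members' promoters and 8.86% of all. ATGGCGG, which matches part of a YY1 site, was present in 23.0% against 4.05%, and the TATA box hexamer TATAAA in 9.84% against 13.6%. These are matches of letters in a window, counted with no test. The reverse complement of CCGGAAG holds CTTCC, itself a pyrimidine run, so that search and the run can count the same bases.

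**Figure D1:**
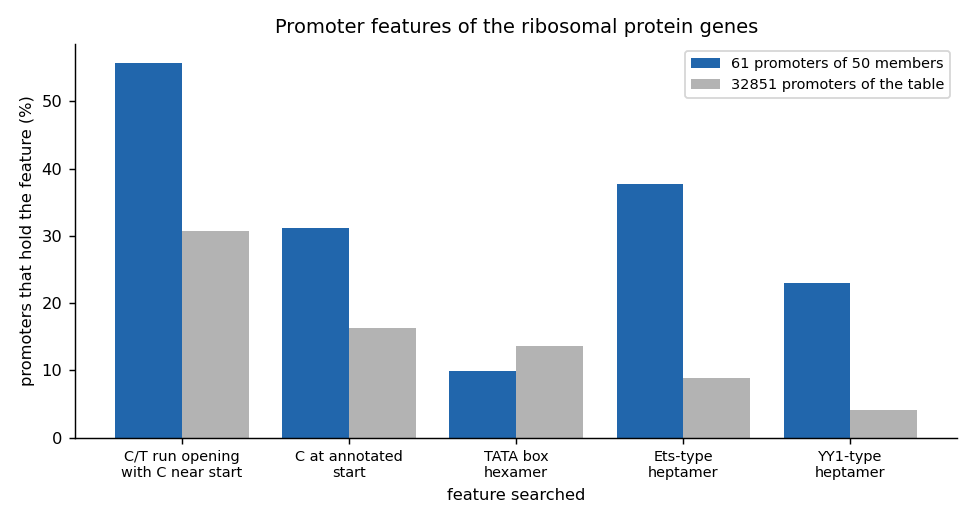
Share of promoters (percent, vertical axis) that hold each searched feature (horizontal axis), for the 61 promoters of 50 ribosomal protein genes (blue) and all 32851 promoters of the table (grey). The pyrimidine run stood at 55.7% of the members' starts against 30.7% of all, and the TATA box hexamer was the 1 feature of the 5 with a lower share among the members.

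The diet comparison in liver asked which transcripts differed after a day of choice. Among the 58 members tested, 20 were lower on 2-choice in both strains, against 30.9% of all probes, and 15 were higher, against 29.3%. The median member lay near its chow level (-0.02). At least 1.5-fold lower in both strains were 4 of the 58, all of the large subunit: Rpl14, Rpl17, Rpl10a and Rpl9. This lies near the share of all probes tested (5.74%). No member was that much higher in both (5.92% of all probes). None of the 58 members passed the test across all probes: limma called 0 of 19807 probes at an adjusted p of 0.05 (lowest 0.125), so 0% in each direction, with 1731 at an unadjusted p under 0.05. Fitted differences are given with their standard error (SE), from 1 fit of all 8 arrays.

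Rpl14, a large-subunit protein, had a level of 15.90 in the B6 and 16.12 in the congenic liver on chow, and of 14.73 and 15.07 on 2-choice. Both 2-choice arrays lay below both chow arrays. The difference was -1.11 ± 0.15 SE (limma, adjusted p = 0.136), or 2.16-fold lower, from -1.17 in B6 and -1.05 in congenic. A second and much dimmer Rpl14 probe ran the other way, from 10.01 and 10.58 on chow to 10.77 and 10.82 on 2-choice.

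Rpl17, which lines the tunnel through which the new peptide leaves the ribosome, read 16.44 and 16.74 on chow and 15.38 and 15.63 on 2-choice. Its 2-choice levels, too, were both below the chow levels, by -1.06 in B6 and -1.10 in congenic (-1.08 ± 0.27 SE, limma adjusted p = 0.349). Rpl10a, the protein of the mobile stalk beside the site where spent tRNA leaves, read 16.70 and 16.80 on chow against 15.93 and 16.16 on 2-choice. The groups did not overlap (-0.70 ± 0.15 SE, limma adjusted p = 0.274).

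Rpl9, of the large subunit, read 18.32 in B6 and 18.86 in congenic liver on chow and 17.66 and 18.17 on 2-choice. It did not pass (-0.68 ± 0.18 SE, limma adjusted p = 0.375), with nearly the same difference in B6 (-0.67) and congenic (-0.69). Rps26, a small-subunit protein at the channel where the messenger leaves, read 17.38 and 17.50 on chow and 16.82 and 16.77 on 2-choice (-0.64 ± 0.20 SE, limma adjusted p = 0.417). Rps19 and Rps24, both known from inherited anaemia, had fitted differences of -0.55 and -0.51. Rpl13a, which also serves in a complex that silences inflammatory transcripts, had one of -0.49. A second and much dimmer Rps24 probe was higher on 2-choice in both strains, from 10.10 and 9.74 on chow to 10.89 and 9.95.

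**Figure D2:**
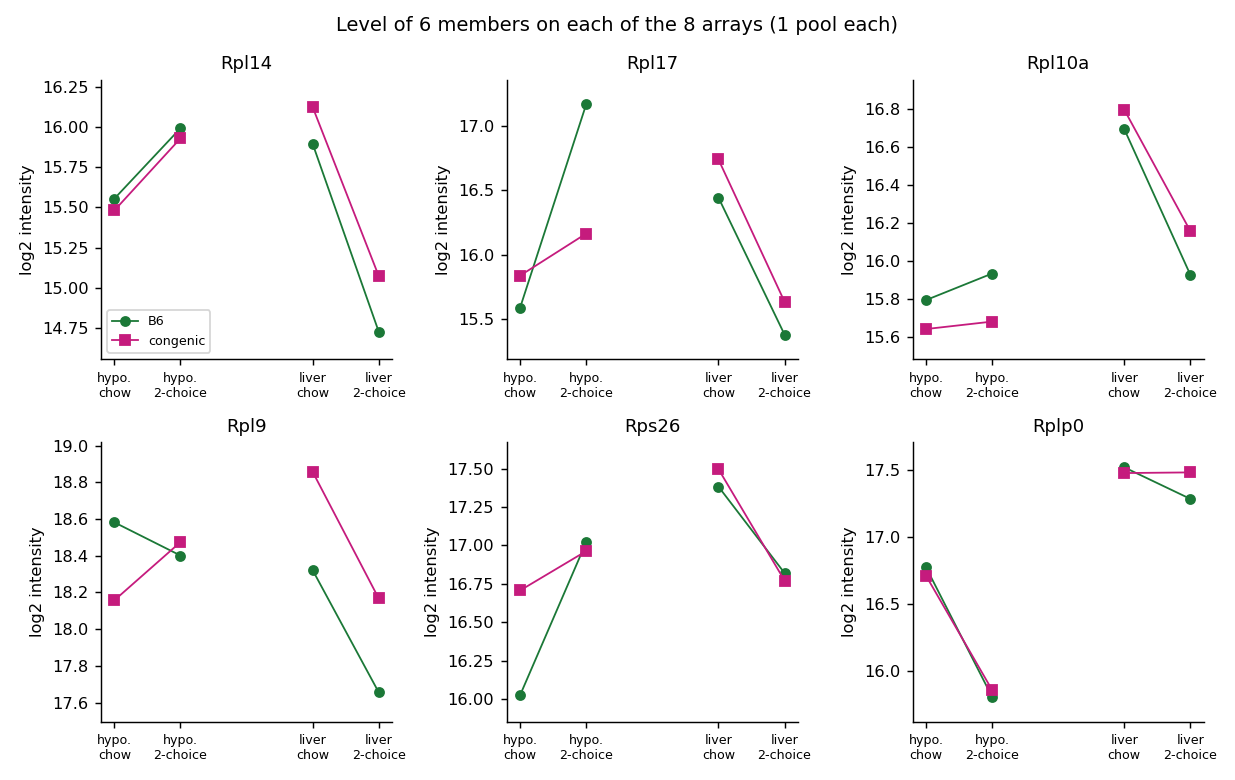
Log2 intensity (vertical axis, a separate range in each panel) of 6 ribosomal protein genes on each of the 8 arrays, with tissue and diet on the horizontal axis, B6 as green circles and congenic as magenta squares; each point is 1 pool and lines join the arrays of 1 strain within a tissue. Rpl14, Rpl17, Rpl10a, Rpl9 and Rps26 were lower on both liver 2-choice arrays than on both liver chow arrays, whereas Rplp0 was lower on both hypothalamus 2-choice arrays.

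At the other end, Rpl26, known for binding the p53 messenger, read 18.84 and 18.80 on chow and 19.22 and 19.17 on 2-choice. Its brightest probe was higher in both strains by nearly the same amount, 0.38 in B6 and 0.37 in congenic (0.38 ± 0.16 SE, limma adjusted p = 0.574). A second Rpl26 probe was lower on 2-choice, at 17.55 and 17.57 on chow and 16.79 and 17.37 on 2-choice, so that the mean of both probes had a difference of -0.05. The others named as highest were Rps12 (0.35), Rpl22 (0.33, and -0.01 as the mean of its probes), Rps27 (0.31) and Rps3a1 (0.30), none of which passed.

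In all, 15 of the 58 members were higher in both strains, against 29.3% of all probes, 20 were lower, against 30.9%, and 23 were split. The counts lie near those shares on the higher side and somewhat above on the lower side. The median member difference was -0.02, against -0.01 over all probes. Of the 39 large-subunit members 11 were higher and 13 lower, and of the 19 small-subunit members 4 were higher and 7 lower. With the deposited values taken to log2 and not scaled further, 10 were higher and 28 lower, with a median of -0.10.

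The members' diet differences were correlated between the 2 strains, while the counts of the same sign in both lay near the shares of all probes. Over the 58 members the B6 and congenic differences had a Pearson correlation of 0.68 and a Spearman correlation of 0.53. Over the 19807 probes they were 0.15 and 0.21. The Pearson value of the members includes Rpl14 and Rpl17, which stand apart from the rest in both strains. The points share arrays, scaling and probe brightness, and genes are not independent replicates. With the family's median taken as zero, 19 members lay above it and 20 below it in both strains under every scaling tried. Relative to that median Rpl14 lay at -1.09 to -0.96 and Rpl17 at -1.08 to -0.96 over the scalings.

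When the error was taken from the 4 liver arrays alone, which leaves 1 residual degree of freedom, limma called 639 probes, 340 higher (1.72%) and 299 lower (1.51%). They held 6 members, all lower on 2-choice: Rpl14 (adjusted p = 2.04e-04), Rpl17 (2.07e-04), Rpl10a (0.00795), Rps26 (0.0166), Rpl9 (0.0214) and Rps24 (0.0493). The summed level of Kupffer cell and macrophage markers moved with diet as well, from 17.76 and 17.83 on chow to 16.60 and 16.31 on 2-choice, with 5 of 7 measured markers lower in both strains. The erythroid sum went from 17.68 and 17.54 to 17.17 and 16.55. Of the 2 erythroid markers tested, Hba-a1 was lower in both strains. Alas2 was higher in both, from 15.43 and 15.52 to 15.78 and 15.62. The hepatocyte sum went from 23.11 and 23.35 to 22.69 and 23.13, with 2 of 5 markers lower in both strains and the others split. No marker intensity was 0, and the part of these cells in the members' differences was not tested. In pooled tissue RNA, fewer cells of a type and less RNA per cell cannot be told apart.

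**Figure D3:**
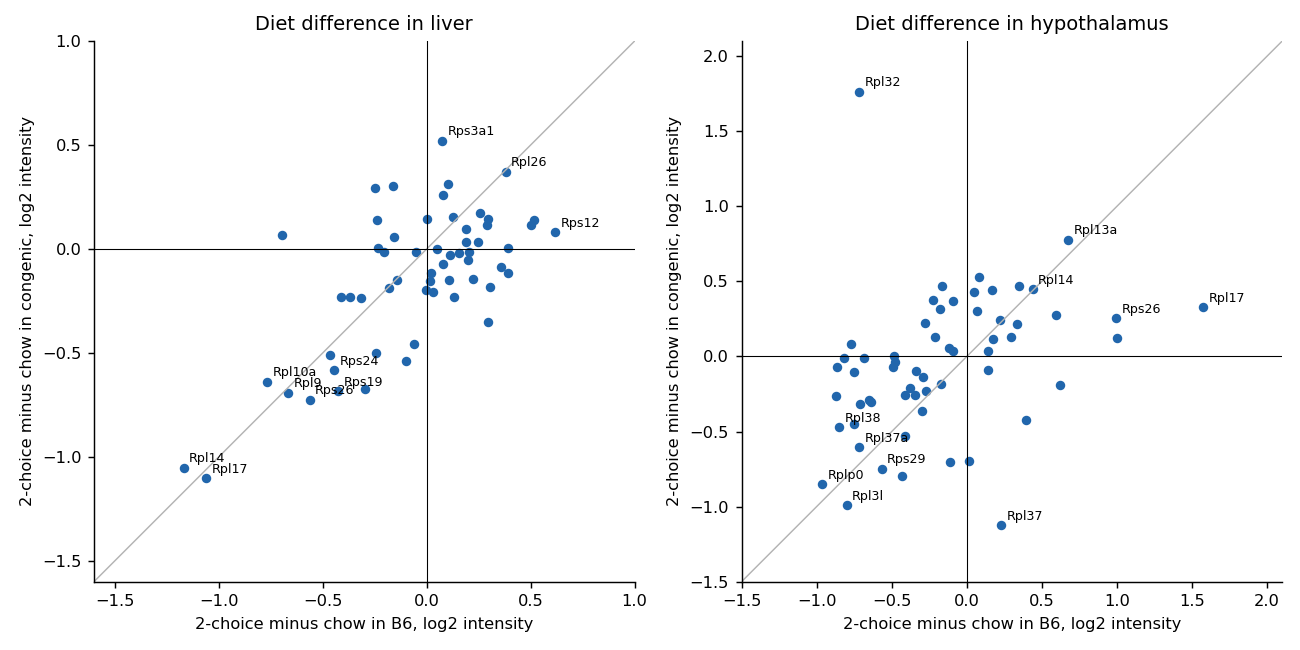
Diet difference (2-choice minus chow, log2 intensity) of each ribosomal protein gene in B6 (horizontal axis) against congenic (vertical axis), for 58 members in liver and 59 in hypothalamus; each point is 1 gene, the diagonal marks equal differences, and some of the genes in the text are named. In liver, Rpl14 and Rpl17 stand apart at the lower left, at -1.17 and -1.06 in B6 and -1.05 and -1.10 in congenic; in hypothalamus, Rpl32 differs in sign between the strains.

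In hypothalamus the diet comparison showed a wider spread of members in both directions, with Rplp0 and the dim Rpl3l far below the family and Rpl17, Rps26, Rpl39l and Rpl13a far above it. The direction of the family as a whole depended on scaling. Its median difference was -0.21 after quantile normalization within the tissue, against 0.07 over all probes, and 1.75 in the deposited values, against 2.05. With array medians aligned it was 0.50 against 0.79. Under each of these, and with quantile normalization over all 8 arrays, the family's median less that of all probes was -0.29 to -0.28.

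limma called 97 probes, 70 higher (0.353%) and 27 lower (0.136%), and 0 of 59 members; 4143 probes had an unadjusted p under 0.05. By direction, 16 members were higher in both strains (33.6% of all probes), 27 were lower (29.7%) and 16 were split. At least 1.5-fold higher in both strains was Rpl13a alone (12.4% of all probes), and lower by that much were Rplp0, Rpl3l and Rpl37a (9.49%). In the deposited values 57 members were called, with all 59 higher in both strains, and with array medians aligned 29 were called, with 46 higher and 5 lower. Single members are therefore best read against the family. The mean over strains uses both chow arrays equally, so it does not depend on which of them is which strain, but its error does. With the 2 chow arrays exchanged, limma called 250 probes, 163 higher (0.823%) and 87 lower (0.439%), and 1 member, Rplp0; 14 members were then higher and 32 lower in both strains.

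Rplp0, the protein at the base of the stalk that recruits elongation factors, read 16.77 and 16.71 in B6 and congenic hypothalamus on chow and 15.81 and 15.86 on 2-choice. The groups were far apart compared with the strains within them. Its difference was -0.91 ± 0.16 SE (limma, adjusted p = 0.0505), just outside the threshold, and a second Rplp0 probe was also lower, from 13.99 and 13.82 to 13.39 and 13.31. Against the family it lay at -0.86 to -0.64 over the scalings. With quantile normalization over all 8 arrays it passed (limma, adjusted p = 0.0360), as it did with the error of the 4 hypothalamus arrays alone (0.00469) and with the chow arrays exchanged (0.0337). With array medians aligned its difference was -0.14 and did not pass (0.501), and in the deposited values it turned to 1.12, which passed in the other direction (1.93e-04). In liver it read 17.52 and 17.47 on chow and 17.28 and 17.48 on 2-choice, with the groups overlapping.

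The other stalk proteins lay nearer the family's median. Rplp1 lay 0.058 to 0.10 and Rplp2 0.34 to 0.47 above it over the scalings. After quantile normalization within the tissue Rplp1 had a hypothalamus diet difference of -0.03 ± 0.16 SE and Rplp2 one of 0.21 ± 0.16 SE, and Rpl12, which binds beside Rplp0, had one of -0.47. The other members named as lowest were Rpl3l at -0.90 ± 0.60 SE, from a dim probe, Rpl37a at -0.66 ± 0.16 SE (limma adjusted p = 0.0912), Rpl38, needed for translating Hox transcripts in the embryo, at -0.66 ± 0.18 SE (0.111), and Rps29 at -0.66 ± 0.16 SE (0.0922). Relative to the family, Rpl37a, Rpl38 and Rps29 lay at -0.63 to -0.53 over the scalings.

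Rpl17 read 15.59 and 15.84 on chow and 17.17 and 16.16 on 2-choice. Both 2-choice arrays were above both chow arrays, though by 1.58 in B6 and 0.33 in congenic (0.95 ± 0.26 SE, limma adjusted p = 0.113). Rpl13a read 18.69 and 18.59 on chow and 19.36 on both 2-choice arrays (0.72 ± 0.18 SE, limma adjusted p = 0.0917). Rps26 read 16.03 and 16.71 on chow and 17.02 and 16.96 on 2-choice (0.63 ± 0.20 SE), and Rpl14 read 15.55 and 15.48 against 15.99 and 15.93 (0.44 ± 0.16 SE). The dimmer Rpl14 probe was split, at 12.09 and 11.37 on chow and 11.47 and 11.44 on 2-choice. Relative to the family, Rpl17 lay 1.08 to 1.22, Rps26 0.76 to 0.86, Rpl14 0.58 to 0.75 and Rpl13a 0.58 to 0.86 above it over all scalings.

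Rpl39l, the testis-rich paralog of Rpl39, had a difference of 0.56 ± 0.26 SE, or 0.70 to 1.05 above the family over the scalings, and its parent one of -0.47 ± 0.21 SE. Rpl3l lay at -1.13 to -0.72 relative to the family. Rpl5, which binds Mdm2 together with Rpl11, was at 0.44. Rpl32 was the member that differed most between strains, at 18.44 on the array labelled B6 chow and 16.06 on that labelled congenic chow, with 17.73 and 17.82 on 2-choice. The low value of 1 array sets its differences, since the other 3 lie within 18.44 and 17.73. Beside these results, most summed marker levels moved one way with diet in both strains. The oligodendrocyte sum went from 16.83 and 17.08 on chow to 17.99 and 17.65 on 2-choice, with all 4 markers tested higher in both strains. The neuron sum went from 18.60 and 18.63 to 18.96 and 19.03, but its markers disagreed. Stmn2 and Tubb3 were higher in both strains, Syt1 was lower, from 15.41 and 15.98 to 14.30 and 14.94, and Snap25 was dim. The astrocyte sum went from 18.33 and 18.16 to 18.62 and 18.57. The erythroid sum went from 15.21 and 15.63 to 16.19 and 15.75, and the hepatocyte sum from 12.56 and 11.81 to 12.87 and 13.42. The macrophage sum went from 15.81 and 15.61 down to 15.24 and 15.23. Of the markers tested, 1 of 2 erythroid and 2 of 4 hepatocyte markers were higher in both strains. Of the macrophage markers 3 of 4 were lower, and the rest of these markers were split. The lymphocyte sum went from 12.19 on both arrays to 11.62 and 11.50, but only 1 of its 7 markers passed the filter on dim probes there. The sum of hypothalamic peptides went from 18.69 and 19.09 to 18.55 and 18.93. Of these peptides Avp, Oxt and Npy were lower and Hcrt and Pomc higher in both strains. The part of all these markers in the members' differences was not tested.

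The diet differences of several members thus had opposite signs in the tissues, and the difference between tissues was tested itself. limma called 10 of 15466 probes for diet by tissue, 1 higher (0.00647%) and 9 lower in liver (0.0582%), and 0 members. The brightest Rpl14 probe came closest, with a liver difference smaller than the hypothalamus difference by 1.55 on the log2 scale (-1.55 ± 0.21 SE, limma adjusted p = 0.0732). The second and much dimmer Rpl14 probe did not share this pattern. Its diet differences were 0.76 in B6 and 0.24 in congenic liver, and -0.62 and 0.06 in hypothalamus. Rpl17 followed at -2.03 ± 0.37 SE (adjusted p = 0.132), Rps26 at -1.27 ± 0.28 SE and Rpl13a at -1.21 ± 0.27 SE (both adjusted p = 0.159). With the 2 hypothalamus chow arrays exchanged, which changes only the error, limma called 35 probes, 9 higher (0.0582%) and 26 lower (0.168%), and the members Rpl17 (adjusted p = 0.0349) and Rpl14 (0.0351). Over 58 members the mean diet differences of liver and hypothalamus had a Pearson correlation of -0.35 and a Spearman correlation of -0.19, against 0.02 and 0.01 over all 15466 probes. Under the other scalings the Pearson value ran from -0.38 to -0.34. All 4 chow and all 4 2-choice arrays enter it, and no test was made of it.

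The strain comparison in liver asked which genes differed between congenic and B6 mice. In this tissue the ribosomal protein genes were on the whole slightly higher in the congenic pools, on chow and on 2-choice. On chow 43 of 58 members were higher in the congenic pool, against 50.1% of all probes, with a median difference of 0.23, and on 2-choice 39 of 58 were higher, against 49.3%, with a median of 0.14. In both pairs together, 33 members were higher, against 28.1% of all probes, 8 were lower, against 28.7%, and 17 were split. The fitted median was 0.19, against 0.01 over all probes. The lean was not particular to the members, since lists of other translation genes described below also leaned higher in both liver pairs. Of the mitochondrial ribosomal protein genes 48.4% were higher and 17.7% lower. The shares were 40% and 15% for initiation factor symbols and 33.3% and 19.0% for ribosome biogenesis genes. For the 8 elongation factor and other 5' TOP genes they were 50% and 12.5%.

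The differences were small. The members' fitted differences had an SD of 0.19 across genes, against 0.64 over all probes, which are mostly far dimmer. Only 1 member on chow and 2 on 2-choice were at least 1.5-fold apart, against 35.8% and 35.5% of all probes, and none was so in the same direction in both pairs (4.18% of all probes higher and 7.03% lower). limma called 0 of 19807 probes and 0 members, with a lowest adjusted p of 0.217 over all probes and 0.693 over the members, and 1318 probes at an unadjusted p under 0.05. With the error of the 4 liver arrays alone it called 252 probes, 47 higher (0.237%) and 205 lower (1.03%), and still 0 members. Some summed marker levels moved with strain in both liver pairs too. From B6 to congenic the hepatocyte sum went from 23.11 to 23.35 on chow and from 22.69 to 23.13 on 2-choice, with 3 of 5 markers higher and 1 lower in both. The erythroid sum went from 17.68 to 17.54 and from 17.17 to 16.55, with Hba-a1 lower in both pairs and Alas2 split. The neuron sum went from 14.28 to 13.98 and from 13.86 to 13.56, but its markers disagreed. Tubb3 and Syt1 were lower in both pairs. Snap25 was higher in both, from 8.03 to 8.45 and from 8.04 to 8.68, and Stmn2 was split, with both of these dim in liver. The oligodendrocyte sum went from 11.60 to 11.96 and from 10.97 to 11.75, but its markers lay at only 8.10 to 10.71 in liver. Mog and Mbp were higher in both pairs, and Mag and Cnp were split. Their part in the members' differences was not tested. The count of higher members was 21 of 39 in the large and 12 of 19 in the small subunit, with 7 and 1 lower.

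Rpl9 had the highest difference in liver: 18.32 in B6 and 18.86 in congenic on chow, and 17.66 and 18.17 on 2-choice. The congenic pool was higher by 0.54 and 0.51 (0.52 ± 0.18 SE, limma adjusted p = 0.693), although the levels of the strains overlap across diets. Rps6, the small-subunit protein that S6 kinase phosphorylates after feeding, read 17.39 and 17.82 on chow and 17.35 and 17.81 on 2-choice. Both congenic arrays were above both B6 arrays (0.44 ± 0.17 SE, limma adjusted p = 0.706), while diet made a difference of -0.03. Rpl12 read 17.96 and 18.45 on chow and 18.25 and 18.56 on 2-choice (0.40 ± 0.16 SE, limma adjusted p = 0.731), and Rpl30, which helps recode selenocysteine, had a difference of 0.47 ± 0.17 SE.

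The members that were lower in the congenic livers were led by the stalk protein Rplp1, at 18.58 and 18.38 on chow and 18.73 and 18.36 on 2-choice (-0.28 ± 0.16 SE). Rplp2, with which it pairs, was at -0.15 ± 0.16 SE and Rplp0 at 0.08 ± 0.15 SE. Rps10 had a difference of -0.24 ± 0.19 SE, Rpl7 of -0.22 ± 0.15 SE and Rpl6 of -0.18. Over the 58 members, the chow and 2-choice strain differences had a Pearson correlation of 0.30 and a Spearman correlation of 0.31, against 0.13 and 0.16 over all probes.

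**Figure D4:**
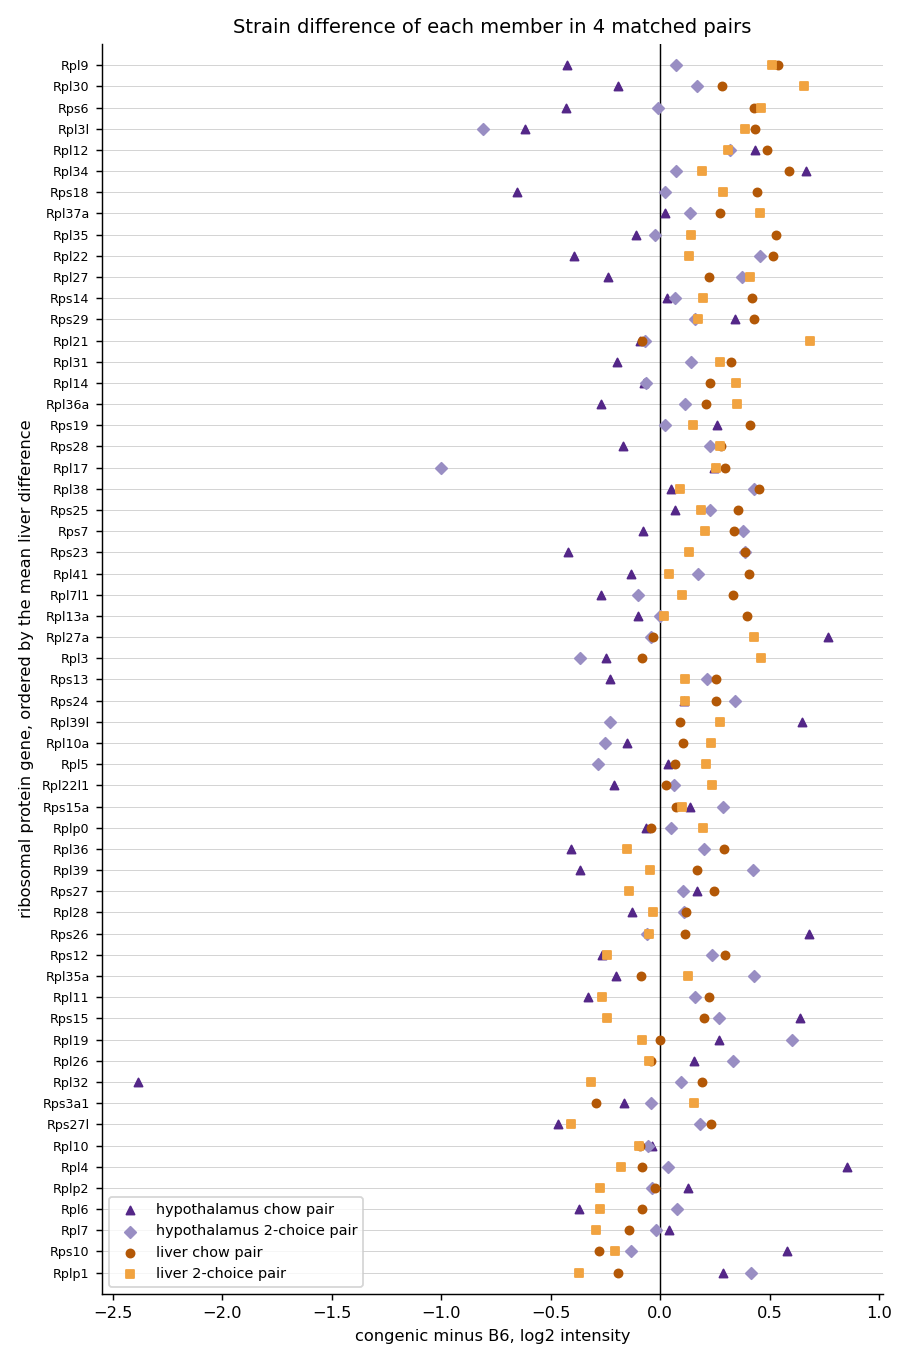
Strain difference (congenic minus B6, log2 intensity, horizontal axis) of each of 58 ribosomal protein genes (rows, ordered by the mean of the liver pairs), with 1 point for each matched pair: hypothalamus chow (dark triangles), hypothalamus 2-choice (light diamonds), liver chow (dark circles) and liver 2-choice (light squares). Most liver points lie to the right of zero, with medians of 0.23 and 0.14, whereas the hypothalamus chow points have a median of -0.09 over 59 members; Rpl32 lies at -2.39 in that pair.

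In hypothalamus, with the labels as deposited, the family's median differed in sign between the strain pairs. The pair labelled chow had a median difference of -0.09, with 25 of 59 members higher in the congenic pool against 50.1% of all probes, and the 2-choice pair had one of 0.11, with 40 of 59 higher against 49.1%. In both pairs 17 members were higher (24.4% of all probes), 10 lower (25.1%) and 32 split, with a fitted median of 0.01. At least 1.5-fold apart were 10 of 59 members in the chow pair (51.4% of all probes) and 3 of 59 in the 2-choice pair (14.5%); in both pairs, 0 were higher by that much (2.58%) and 1 lower (2.37%), the dim Rpl3l. limma called 0 probes and 0 members (lowest adjusted p 0.203, 983 probes at an unadjusted p under 0.05), and with the 4 hypothalamus arrays alone 21 probes, 6 higher (0.0303%) and 15 lower (0.0757%), and 0 members. With the 2 chow arrays exchanged, that pair had a median of 0.09 and 34 of 59 members higher (49.8% of all probes). In both pairs 23 members were then higher (24.7%) and 8 lower (25.7%), with a fitted median of 0.08, and limma called 3 probes, 1 higher (0.00505%) and 2 lower (0.0101%), and 0 members. Without the chow pair, the 2-choice pair stands alone and has no test. The summed hypothalamic peptide markers were higher on both arrays labelled congenic, at 19.09 against 18.69 on chow and 18.93 against 18.55 on 2-choice. Of these peptides Avp and Oxt were higher and Pomc lower in both pairs, and Hcrt and Npy were split. The macrophage sum was lower, at 15.61 against 15.81 and, by very little, 15.23 against 15.24. Of its 4 markers tested 3 were lower in both pairs. The brightest, C1qa, was split, at 14.81 against 15.04 on chow and 14.31 against 14.13 on 2-choice. The part of these markers in the members' differences was not tested.

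Among members with the same sign in both hypothalamus pairs, Rps15 was at 16.91 and 17.55 on chow and 16.48 and 16.75 on 2-choice (0.45 ± 0.18 SE), and Rpl19, read at 19.26, 19.53, 18.62 and 19.22 in that order, had a difference of 0.43 ± 0.18 SE. Both had an adjusted p of 0.823. The dim Rpl37 probe and the Rpl4 probe had differences of 0.99 ± 0.69 SE and 0.45 ± 0.31 SE, mostly from the chow pair (1.66 and 0.86). Rpl4, at 11.53 to 12.39, was less bright than most members but well above the filter. The lowest were Rpl3l at -0.71 ± 0.60 SE, its parent Rpl3, a protein near the peptide-forming centre, at -0.31 ± 0.18 SE, and Rps6 at -0.22 ± 0.17 SE, which came from the chow pair (-0.43) and not from the 2-choice pair (-0.01). With the chow arrays exchanged, the hypothalamus difference of Rps6 was 0.21, that of Rps15 -0.18, that of Rpl37 -0.68 and that of Rpl4 -0.41, so the signs of these 4 rest on that pair's labels. No strain by tissue difference was called for any of 15466 probes (the lowest adjusted p by limma was 0.796, and 836 had an unadjusted p under 0.05), nor with the arrays exchanged (lowest 0.413, and 822).

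Over all 4 pairs as labelled, 10 of 58 members were higher in the congenic pool every time, against 6.81% of all probes, and 1 was lower, against 6.99%. None of 15466 probes was called by limma; the lowest adjusted p was 0.466, and 660 probes had an unadjusted p under 0.05. Rpl12, which sits at the base of the stalk and takes part in elongation factor binding, was the highest of the 10. It read 17.73 in B6 and 18.17 in congenic hypothalamus on chow, 17.32 and 17.64 on 2-choice, 17.96 and 18.45 in liver on chow and 18.25 and 18.56 on 2-choice. The congenic array was the higher one of each pair, by 0.43, 0.32, 0.49 and 0.31 (0.39 ± 0.11 SE, limma adjusted p = 0.863).

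Rpl34 (0.38 ± 0.13 SE), Rps29 (0.28 ± 0.11 SE), Rpl38 (0.26 ± 0.12 SE) and Rpl37a (0.22 ± 0.12 SE) followed. The member lower in all 4 was Rpl10, which joins the large subunit late in its assembly, at -0.07 ± 0.11 SE. Without the hypothalamus chow pair, 23 members were higher in the remaining 3 pairs, against 14% of all probes, and 4 lower, against 14.5%, with a median of 0.15. Fitted over those 3 pairs, Rpl12 was at 0.37, Rpl34 at 0.28, Rps29 at 0.25, Rpl38 at 0.32, Rpl37a at 0.29 and Rpl10 at -0.081. limma then called 9 probes, 4 higher (0.0259%) and 5 lower (0.0323%), and 0 members, whose lowest adjusted p was 0.687. With the 2 arrays of the pair exchanged, 13 members were higher in all 4 pairs (7.2% of all probes) and 3 lower (7.53%). The fitted median was 0.14. The exchange turns the sign of that pair, so the 13 could not include any of the 10 above. Rpl9 (0.39 ± 0.12 SE), Rpl22 (0.38 ± 0.11 SE) and Rps18 (0.35 ± 0.13 SE) led the 13. The place of Rpl22 rests on its brightest probe. A second, dimmer Rpl22 probe was higher in both liver pairs (0.27 and 0.23). In hypothalamus it was at 0.32 on chow as labelled and -0.08 on 2-choice, so with the exchange it was lower in both. limma then called 6 probes, 2 higher (0.0129%) and 4 lower (0.0259%), and 0 members, whose lowest adjusted p was 0.816. By construction, which members are higher in every pair depends on the labels of that pair.

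Of the members, 7 lie on chromosome 17, on which the congenic strain carries donor sequence; which genes the donor segment holds was not used here. They did not move together. In liver Rps18 differed by 0.36 ± 0.19 SE (0.44 on chow and 0.29 on 2-choice), Rps28 by 0.28 ± 0.16 SE (0.28 and 0.27), Rpl7l1 by 0.21 ± 0.18 SE, and Rpl10a by 0.17 ± 0.15 SE. The dim Rpl3l differed by 0.41 ± 0.58 SE, Rps10 by -0.24 ± 0.19 SE, and Rpl36 had 0.29 on chow and -0.15 on 2-choice. None passed (limma, adjusted p from 0.812 for Rps18 to 0.986 for Rpl36).

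In the hypothalamus chow pair Rps18 was at -0.65 and Rps10 at 0.58, each the reverse of its sign in both liver pairs, and in the hypothalamus 2-choice pair they were at 0.02 and -0.13. With the chow arrays exchanged their hypothalamus differences were 0.34 and -0.35. Rps18 read 16.95 on the array labelled B6 chow and 16.30, 16.26 and 16.28 on the other 3, so its difference there rests on 1 array. Rps10 likewise read 17.42 on the array labelled congenic chow and 16.84, 16.86 and 16.73 on the others. Rpl10a (-0.15 and -0.25), Rpl7l1 (-0.27 and -0.10) and Rpl3l (-0.62 and -0.81) were lower in both hypothalamus pairs, and Rps28 and Rpl36 were split.

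Between tissues, the level of the family as a whole could not be placed, because its direction turned with scaling. With quantile normalization over all 8 arrays its median was 0.68 lower in liver (-0.68, against 0.06 over all probes), with 3 members called higher and 36 lower, against 22.3% and 21.6% of 15458 probes. In the deposited values the median was 0.41 higher and 1 member was called, and with array medians aligned it was 0.72 higher, with 28 called and 0 of 58 lower in every pair. Differences from the family's median were steadier. In every pair and under every scaling 9 members lay above it and 8 below it.

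Rps27l stood far apart from the rest. This paralog of Rps27, known as a target of p53, read 13.95 and 13.42 in B6 and congenic hypothalamus on chow and 13.09 and 13.30 on 2-choice, and 16.92, 17.13, 17.19 and 16.80 in the liver arrays in the same order, on the scale common to all 8. Every liver array was above every hypothalamus array, by 3.57 ± 0.20 SE (limma, adjusted p = 2.86e-07), and by 3.71 to 4.21 relative to the family under all scalings. It was called under each of them. Its parent Rps27 went the other way relative to the family, at -0.72 to -0.49, from 19.05, 19.25, 18.69 and 18.83 in hypothalamus to 17.35, 17.56, 17.81 and 17.66 in liver; with array medians aligned, its own difference turned to 0.23.

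Rpl22 and its paralog Rpl22l1, which Rpl22 is known to repress, were also split. Rpl22 read 16.48, 16.02, 15.60 and 16.11 in hypothalamus and 16.56, 17.05, 17.05 and 17.18 in liver, 1.38 to 1.55 above the family's median difference. Rpl22l1 read 17.11, 16.89, 17.30 and 17.37 in hypothalamus and 15.68, 15.70, 15.77 and 15.99 in liver, at -0.93 to -0.74 relative to the family. Each gene is read from its own probe, so the levels of the pair are not compared with each other. Of the other pairs, Rpl3 lay at -1.19 to -0.99 relative to the family, while its muscle paralog Rpl3l, Rpl7l1, and Rpl39 and Rpl39l changed side between pairs or scalings; Rpl7, the parent of Rpl7l1, lay above at 0.40 to 0.49.

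The other members above the family in liver in every pair and scaling were Rps18 (0.86 to 0.91), Rpl10 (0.80 to 0.95), Rplp0 (0.71 to 0.84), Rpl28 (0.67 to 0.77), Rps13 and Rpl27. Below it lay Rpl27a (-1.56 to -1.10), Rpl21 (-1.14 to -0.87), Rps29 (-0.74 to -0.72), Rps23 and Rpl31.

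**Figure D5:**
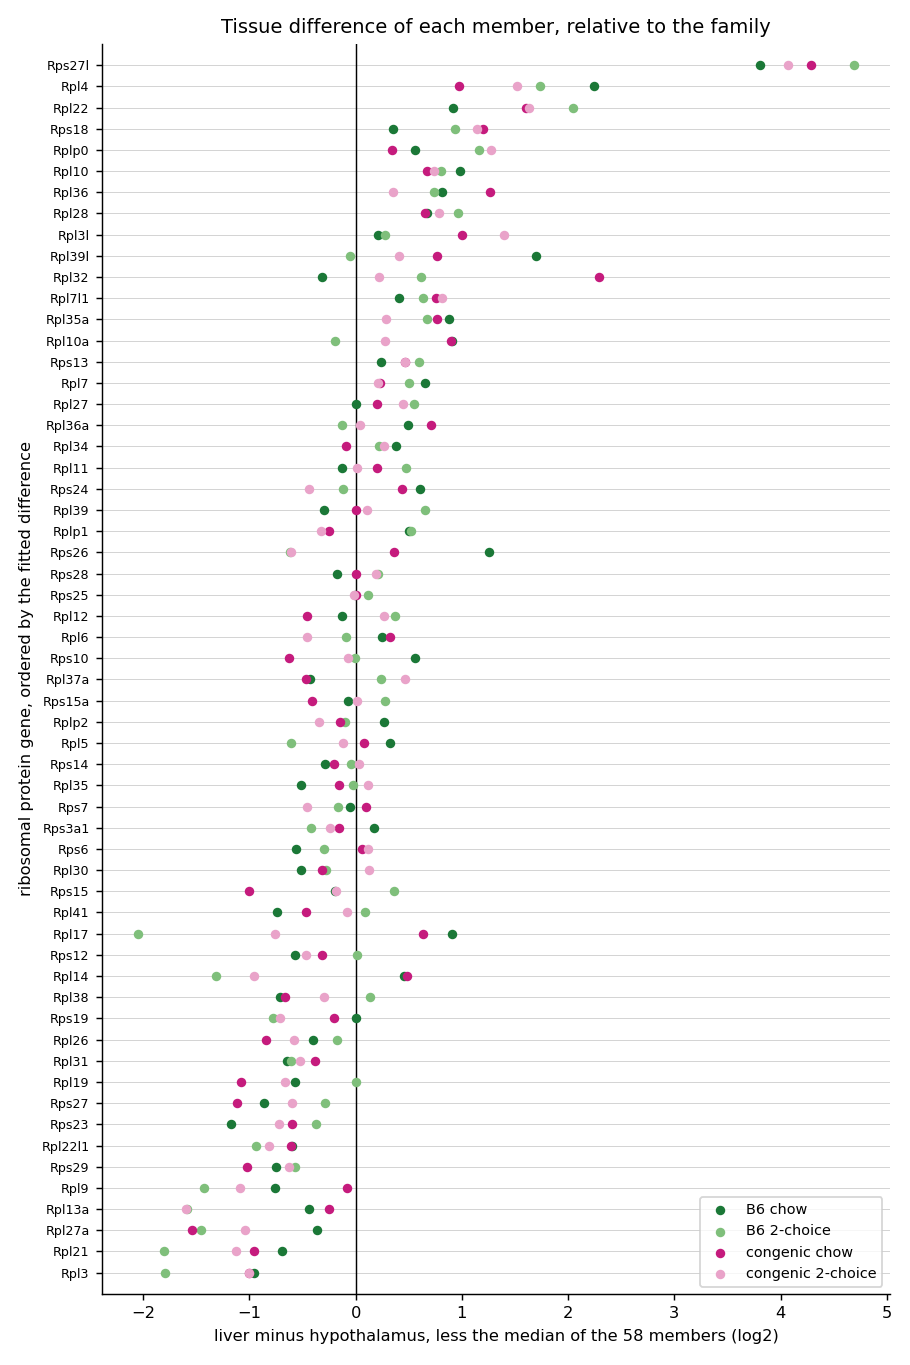
Liver minus hypothalamus difference of each of 58 ribosomal protein genes less the median of the 58 (log2, horizontal axis), after quantile normalization over all 8 arrays; rows are genes ordered by the fitted difference and the 4 points of a row are the strain and diet pairs, with B6 in green and congenic in magenta. Rps27l lies to the right of all others in every pair; most other members lie within 2 log2 units of the family's median.

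Other parts of the translation machinery were read from lists as background to the members. Of 65 mitochondrial ribosomal protein genes, which serve the organelle's own ribosome, 62 were tested in liver: 30 were higher and 11 lower in the congenic pool of both pairs, with a median of 0.11, against 28.1% and 28.7% of all probes, so 48.4% and 17.7% of the list. On 2-choice 22 were higher and 23 lower in both strains (35.5% and 37.1%, against 29.3% and 30.9% of all probes). Of 9 elongation factor and other 5' TOP genes with a probe, 8 were tested in liver, where 1 was higher and 6 lower on 2-choice in both strains (12.5% and 75% of this short list), with a median of -0.12. The lowest of them was Fau, which encodes a small-subunit protein fused to a ubiquitin-like one, at -0.56 ± 0.18 SE (limma adjusted p = 0.438). Of 21 ribosome biogenesis genes, 3 were higher and 9 lower on 2-choice in liver (14.3% and 42.9%), and of 40 genes with an initiation factor symbol, which include kinases and binding proteins of those factors, 12 were higher and 19 lower (30% and 47.5%). None of these lists held a called gene in a strain or diet comparison of either tissue.

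Between tissues the lists differed in the quantile-normalized values: 26 of 61 mitochondrial ribosomal protein genes were called higher in liver and 5 lower, with a median of 0.56, against 22.3% and 21.6% of all probes and a median of 0.06. The list's median kept its sign under the other scalings, while the calls did not hold: in the deposited values 1 of 62 was called higher and 0 lower (median 0.84, against -0.01 over all probes), and with array medians aligned 42 higher and 0 lower (1.15 against 0.29). The highest difference of the growth signalling list was that of Eif4ebp1, the mTOR target that holds back initiation, at 5.08 ± 0.29 SE (limma adjusted p = 2.87e-07), and at 5.26 and 5.57 in the deposited and median-aligned values.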

How the data were processed

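The deposited values are linear probe intensity for 33012 probes on 8 single-channel arrays, 1 pool each, made per the labels' protocols from 1 microgram of RNA by digoxigenin-labelled cRNA and chemiluminescence; how the authors corrected background and normalized is not stated in the labels or headers. Detection flags were not used here. A probe was named where the platform table gave exactly 1 symbol (14411 probes; 247 had several and 18354 had none there), and all 60 members were matched to RefSeq by gene identifier.

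Log2 intensities were quantile normalized within a tissue (4 arrays), or over all 8 for liver against hypothalamus. Probes whose mean level reached the 40th percentile of the tissue were tested with limma 3.58.1 in R 4.3.3 (eBayes with trend), with Benjamini-Hochberg adjustment over all probes tested and a threshold of 0.05. For strain over both tissues and for liver against hypothalamus the 4 matched pairs were blocks, leaving 3 residual degrees of freedom. The comparisons in each tissue came from 1 fit of 8 arrays with terms nested in tissue, leaving 2. No pool was repeated, so the error is made of interactions. The fits were also run on simulated data with planted changes and noise drawn from the fits' own spread. That run cannot show how well the error describes repeated pools.

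For each comparison the text names the 5 highest and 5 lowest members of the same sign in every pair, and always Rplp0, Rplp1, Rplp2, Rpsa, Rps6, the paralogs with their parents and the members on chromosome 17; Rps19, Rps24, Rpl5 and Rpl32, and Rpl13a for liver diet, were added after their values were seen, as were further members in the lists of those above or below the family's median. The check of the strain labels on chromosome 17 was also chosen after seeing the data. Members and lists were chosen with earlier results of these data known. Alternatives were other scalings, filters and variance models, the mean over a gene's probes, the 4 arrays of a tissue alone, leaving out each pair and, added after seeing the data, exchanging the 2 hypothalamus chow arrays. Per the platform table symbols can be old. Protein sequences were not used here.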

Additional observations from a re-analysis of the deposited data

How the results depend on the processing

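Of 153 values of named members, recomputed under 1707 alternatives in all, 1526 kept their direction and side of the threshold, 38 newly passed it, 26 no longer did and 117 turned in sign. The liver strain and liver diet values of the members described above kept their sign under every scaling, except Rpl3, Rplp1, Rplp2 and Rps18 for diet. In the deposited values without further scaling the diet differences in hypothalamus turned to Rpl10 1.80, Rpl22 1.74, Rpl37a 1.19, Rpl38 1.19, Rpl39 1.37, Rpl3l 0.63, Rpl7l1 1.88, Rplp0 1.12, Rplp1 1.82, Rps10 1.64, Rps18 1.66, Rps27 1.41, Rps27l 1.81, Rps28 1.47, Rps29 1.23 and Rps6 1.67, and with array medians aligned to Rpl10 0.54, Rpl22 0.48, Rpl39 0.11, Rpl7l1 0.62, Rplp1 0.56, Rps10 0.39, Rps18 0.40, Rps27 0.16, Rps27l 0.56, Rps28 0.21 and Rps6 0.41. The liver minus hypothalamus differences turned to Rpl10a 0.65, Rpl39 0.71, Rpl3l -0.10, Rpl7 0.91, Rplp1 0.71, Rplp2 0.16, Rps10 0.35, Rps28 0.42 and Rps6 0.27 in the deposited values, and to Rpl10a 0.95, Rpl13a 0.12, Rpl39 1.02, Rpl7 1.21, Rpl9 0.15, Rplp1 1.01, Rplp2 0.46, Rps10 0.66, Rps27 0.23, Rps28 0.72 and Rps6 0.57 with array medians aligned. In the deposited values the liver diet differences turned to Rpl3 -0.049, Rplp1 -0.0067, Rplp2 -0.016 and Rps18 -0.060, with array medians aligned to Rpl3 -0.053, Rplp1 -0.010, Rplp2 -0.020 and Rps18 -0.064, and under both the hypothalamus strain difference of Rpl39 turned to -0.014. Quantile normalization over all 8 arrays turned the strain differences over both tissues to Rpl7l1 -0.016, Rps10 0.0086 and Rps18 -0.011. The mean over probes turned liver diet to Rpl22 -0.010 and Rpl26 -0.054, and liver minus hypothalamus to Rplp0 -0.088. Leaving out each matched pair in turn, strain differences over both tissues that changed sign ranged from Rpl10a -0.10 to 0.060, Rpl22l1 -0.040 to 0.11, Rpl3 -0.23 to 0.044, Rpl36 -0.12 to 0.11, Rpl39 -0.081 to 0.18, Rpl3l -0.35 to 0.069, Rpl7l1 -0.092 to 0.11, Rplp0 -0.018 to 0.069, Rplp1 -0.092 to 0.17, Rplp2 -0.11 to 0.023, Rps10 -0.21 to 0.081, Rps18 -0.11 to 0.25, Rps27l -0.23 to 0.0022 and Rps6 -0.0048 to 0.29, and liver minus hypothalamus differences from Rpl10a -0.33 to 0.036, Rpl36 -0.030 to 0.27, Rpl39l -0.20 to 0.30, Rpl3l -0.17 to 0.32 and Rpl7l1 -0.069 to 0.16. With the 2 hypothalamus chow arrays exchanged, chosen after seeing the data, strain differences over both tissues turned to Rpl10a 0.058, Rpl3 0.064, Rpl36 0.19, Rpl39l -0.13, Rpl3l 0.16, Rplp1 -0.11 and Rps27l 0.12, and those in hypothalamus to Rpl12 -0.059, Rpl22l1 0.14, Rpl36 0.30, Rpl37 -0.68, Rpl39l -0.44, Rpl4 -0.41, Rpl7 -0.030, Rpl7l1 0.084, Rplp0 0.057, Rplp2 -0.081, Rps10 -0.35, Rps15 -0.18, Rps18 0.34, Rps27 -0.032, Rps27l 0.32 and Rps6 0.21.

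Counts moved most where diet or tissue crosses scaling sets. For diet in hypothalamus, the probes called went from 97 to 15430 in the deposited values, 7633 with array medians aligned, 202 with quantile normalization over all 8 arrays, 43 with the 60th percentile filter, 0 without the variance trend and 755 with the 4 arrays of the tissue; members called went from 0 to 57, 29 and 1 under the first 3 of these and to 2 under the last. Members higher in both strains numbered 59 and 46, and lower ones 0 and 5, in the deposited and median-aligned values, with medians of 1.75 and 0.50. For liver against hypothalamus, 2649 probes and 1 member were called in the deposited values (0 members lower in every pair, median 0.41). With array medians aligned 41 members were higher and 0 lower in every pair (median 0.72), and without the trend 23 members were called. The liver diet median was -0.10 in the deposited values and with medians aligned. With the 4 arrays of a tissue, probes called went from 0 to 252 for strain in liver, 21 for strain in hypothalamus and 639 for diet in liver, the last with 6 members; strain in hypothalamus had 1 probe called in the deposited values and 1 with medians aligned. With the hypothalamus chow arrays exchanged, probes called went from 0 to 6 for strain over both tissues (3 members lower in every pair), from 0 to 3 for strain in hypothalamus and from 97 to 250 for diet in hypothalamus, the last with 1 member. The cause of these moves was not tested.

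Leaving out 1 matched pair gave ranges of 0 to 9 probes called, 10 to 23 members higher and 1 to 4 lower for strain over both tissues. Each remaining single pair had 14 to 19 members lower for strain in liver, 25 to 40 higher and 18 to 34 lower for strain in hypothalamus, 22 to 31 higher and 26 to 35 lower for diet in liver, and 21 to 27 higher for diet in hypothalamus, with a median of -0.23 to -0.037; for liver against hypothalamus 4 to 7 were higher. The labels give no replicate numbers to pair samples by; the matched pairs of tissue, strain and diet were already the blocks of the fits. Each group had 1 pool, so the number of arrays limits the precision, and every p-value reflects the spread among these 8 pools alone.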
